A study of Homo sapiens with 2 samples.

Results

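Lysine lactylation was mapped over 9 genes of pericellular proteolysis and invasion: PLAU, PLAUR, PLAT, SERPINE2, PDPN, ADAM9, ADAM10, ADAM17 and THBS1. They were listed by name, with earlier results of these data known, and all 9 were found among the 20037 protein-coding genes of the RefSeq annotation. A region was assigned to a gene when it lay inside the gene or within 20 kb of it. That gave 26 of 43680 regions for the library labelled untreated and 31 of 50352 for the one labelled lactate. No region was assigned to more than 1 of the 9 genes.

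The cells were CAL27, an established line of human oral squamous cell carcinoma. One library was made from cells with no treatment, the other after 24 hours with 10 mM lactate, and both used an antibody against lactylated lysine on any protein (CUT&Tag, in which the antibody guides a transposase to cut and tag nearby DNA). With 1 library for each group, the groups were compared without a test, and no library without antibody is used here. Depth was 15696147 and 15120031 tags. The 2 lists carry a conflict. In each, all peak names, the name of the run and that of its input are those of the other sample, so each direction between the libraries below rests on the sample labels and would turn if the lists were exchanged.

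Plasminogen activation is a cascade at the cell surface. Urokinase, the product of PLAU, is held by its receptor, encoded by PLAUR, and cleaves plasminogen to plasmin, which degrades fibrin and matrix and activates other proteases. Serpins restrain the activators, and membrane metalloproteinases of the ADAM family shed receptors, adhesion molecules and growth factor precursors from the same surface. In squamous carcinomas of the mouth, urokinase, its receptor and podoplanin are known as markers of the invasive edge.

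The sequences just before the start of a gene are shown for 4 genes, because regions of both libraries lay over the starts of ADAM10, ADAM17 and THBS1, while PLAUR, with the strongest regions of the 9 genes, had them to both sides of its start and none over it. RefSeq start windows, 250 bases before to 50 after a start on GRCh38.p14, were found for 7 of the 9 genes, with 11 starts in all. PLAT and ADAM9 had no entry. Each sequence is the gene's own strand, 5′ to 3′, up to the base before the start. Capitals mark matches on either strand to a GC box (GGGCGG), an AP-1 motif (TGANTCA) or a TEAD motif (GGAATG), letters that do not overlap each other here.
ADAM10, chr15:58749708-58749957, minus strand: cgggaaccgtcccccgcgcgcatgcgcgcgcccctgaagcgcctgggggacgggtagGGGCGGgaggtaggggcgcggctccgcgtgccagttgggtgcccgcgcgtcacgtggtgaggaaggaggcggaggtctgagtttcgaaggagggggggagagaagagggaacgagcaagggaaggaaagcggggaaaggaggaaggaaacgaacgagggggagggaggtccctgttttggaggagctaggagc
ADAM17, chr2:9555831-9556080, minus strand: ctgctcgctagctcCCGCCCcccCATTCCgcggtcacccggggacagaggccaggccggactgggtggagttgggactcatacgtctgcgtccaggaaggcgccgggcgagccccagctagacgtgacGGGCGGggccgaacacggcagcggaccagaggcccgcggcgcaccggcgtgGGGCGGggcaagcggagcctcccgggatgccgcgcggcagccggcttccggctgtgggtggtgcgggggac
THBS1, chr15:39580995-39581078, plus strand: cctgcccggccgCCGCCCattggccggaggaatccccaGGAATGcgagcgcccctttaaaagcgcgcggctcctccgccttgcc
PLAUR, chr19:43670170-43670419, minus strand: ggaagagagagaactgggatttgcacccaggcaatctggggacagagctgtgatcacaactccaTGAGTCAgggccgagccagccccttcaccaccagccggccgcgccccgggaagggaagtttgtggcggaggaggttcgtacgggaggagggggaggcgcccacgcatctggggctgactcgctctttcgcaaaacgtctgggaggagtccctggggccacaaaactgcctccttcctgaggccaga

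The THBS1 stretch is cut to the 84 bases that lie in no other protein-coding gene model. Over the 250 bases before the start, ADAM17 had 3 GC boxes and 75.6% G or C, and ADAM10 had 1 and 68.4%. THBS1 had 4 GC boxes in its 250 bases, against 0 in PLAUR. Other starts with no region over them also had GC boxes. The PLAU start at 73911132 had 3 (68.8% G or C), and the SERPINE2 start at 224038640 had 2 (75.2%). The SERPINE2 start at 224031478 and the PDPN starts at 13583757 and 13583832 had 1 each. The PLAU start at 73910610 and the PDPN start at 13585460 had 0. A GC box was present before 53.7% of the 22199 protein-coding start windows, and the median G or C content was 62.0%. PLAUR had the single AP-1 match among the 11 starts of the members, at bases 186 to 180 before the start, TGAGTCA. The motif was present in 5.36% of all windows. A TEAD match lay before ADAM17 and THBS1 (10.5% of all windows). The letters of a TATA box (TATAAA) were matched before 2 of the 3 PDPN starts (9.0% of all windows). Both of these matches were on the opposite strand, at bases 204 to 199 and 93 to 88 before the start. Of all protein-coding start windows, 33.9% and 39.3% were overlapped by a region of the libraries labelled untreated and lactate. Among the 11 start windows of the members, 3 were overlapped in each library, the single windows of ADAM10, ADAM17 and THBS1.

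Every one of the 9 genes had at least 1 region in each library. This was common in these libraries: 81% and 83.9% of protein-coding genes had one within that distance. Regions per gene ranged from 1 to 5 and from 1 to 6. The 9 genes with their margins span 879 kb, which gave 2.96 and 3.53 regions per 100 kb when pooled. Counted gene by gene, the middle values of the 9 were 2.02 (ADAM9) and 4.66 (ADAM17). The medians over all protein-coding genes, also gene by gene, were 2.31 and 2.82. The middle value of the 9 was thus below that median in the library labelled untreated and above it in the other. More regions were listed in the library labelled lactate at PLAT, PDPN and ADAM10 (3 of 9, against 41.2% of all protein-coding genes), fewer at PLAU (1 of 9, against 18.6%), and as many at the other 5 (40.1% of all). Within 50 kb the order at PLAU turned, with 6 and 8 regions, and ADAM10 had 6 in each.

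**Figure D1:**
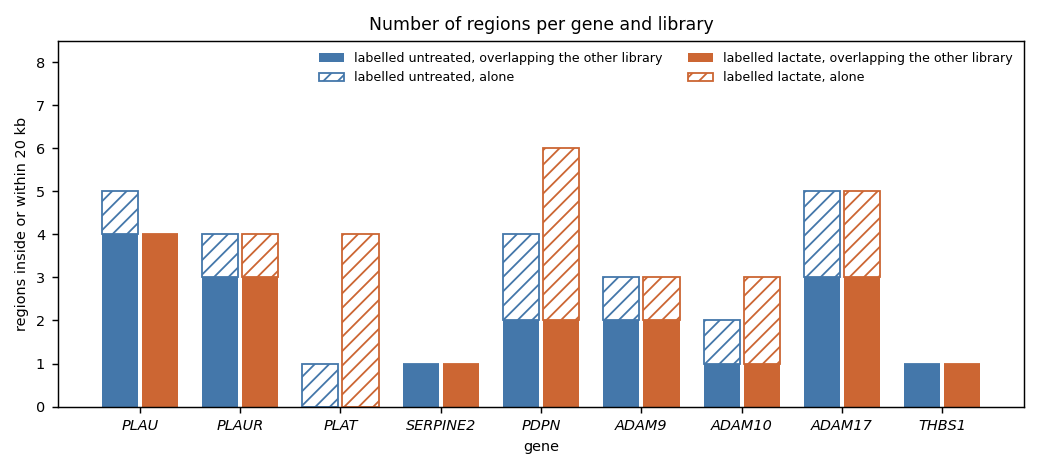
Number of regions inside each gene or within 20 kb (vertical axis) for the 9 genes, in blue for the library labelled untreated and orange for the library labelled lactate. Solid parts are regions that overlap one of the other library and hatched parts are regions in 1 library alone. PLAT has 1 and 4 regions, none of them shared, while SERPINE2 and THBS1 have 1 shared region each.

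**Figure D2:**
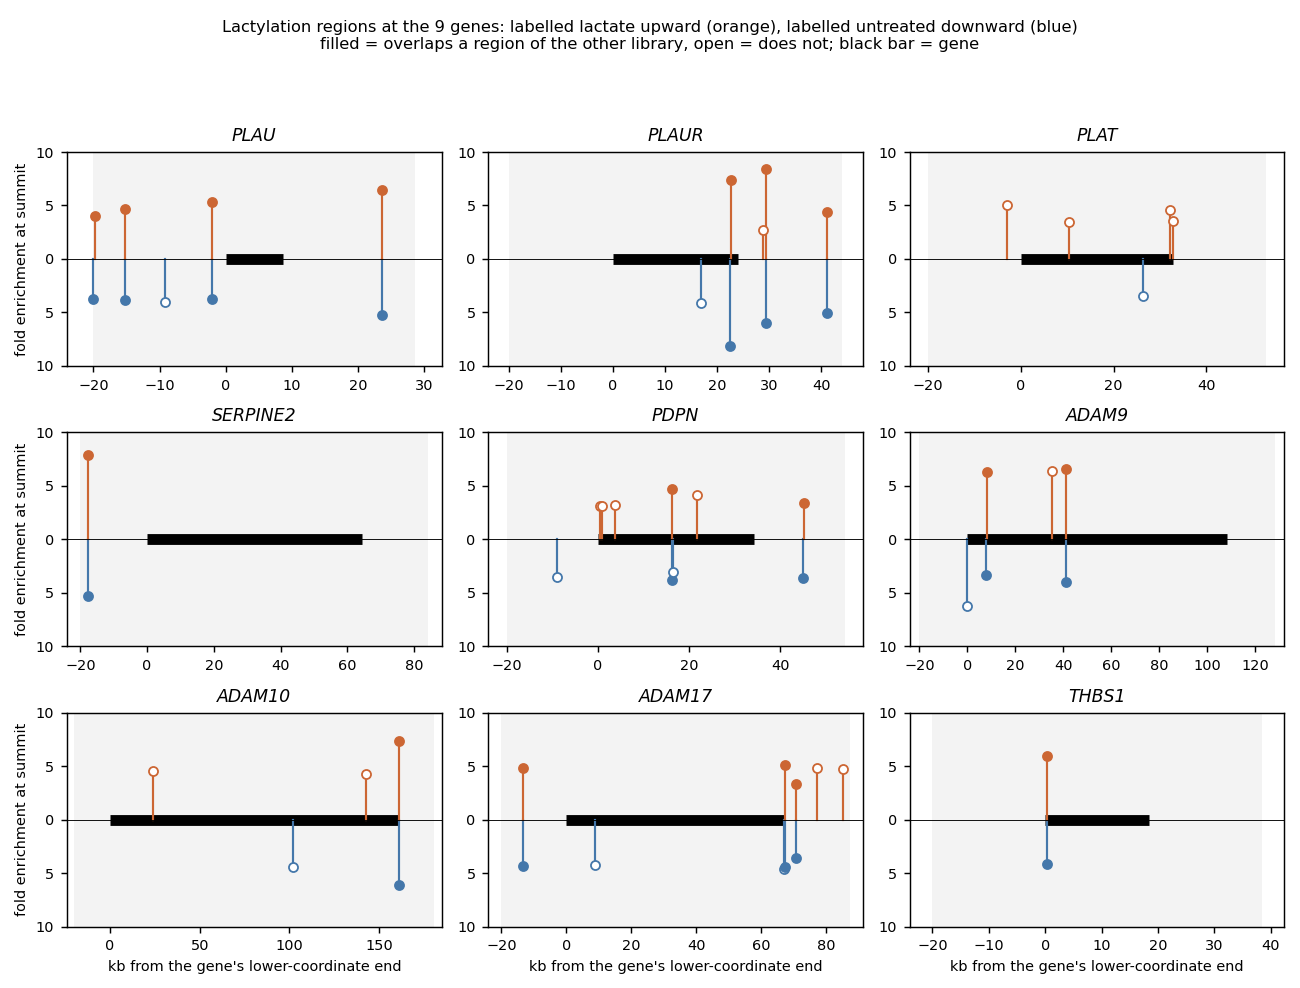
Position of every region along each gene, in kb from the gene's lower-coordinate end (horizontal axis), with the fold enrichment at its summit (vertical axis), upward for the library labelled lactate and downward for the library labelled untreated. Filled points overlap a region of the other library, open points do not, the black bar is the gene and the grey band reaches 20 kb to both sides. PLAU has no region inside the gene, and all regions of PLAT are open.

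Of the regions of the 9 genes, 17 of 26 for untreated cells had 1 bp or more in common with one of the other library (65.4%, exact Clopper-Pearson 95% interval 44.3 to 82.8). In the library labelled lactate 17 of 31 did (54.8%, interval 36 to 72.7). That left 9 and 14 regions in 1 library alone, 34.6% and 45.2%, against 28.8% and 38.8% of all regions. Of all regions, 71.2% and 61.2% overlapped the other library, values that lie inside the intervals of the members. The intervals cover counting error only. Median fold enrichment, which is the authors' ratio of tags at the summit to the local background, was 4.15 and 4.72 for the members' regions and 4.63 and 4.87 for all regions. A fold enrichment of at least 5 was reached by 7 of 26 and 12 of 31, that is 26.9% and 38.7%, against 39.6% and 47.3% of all regions. The members' shares were below those of all regions. Regions past that fold were 3 of 4 and 2 of 4 at PLAUR, 1 of 1 in each library at SERPINE2, and 1 of 3 and 3 of 3 at ADAM9. Regions of 200 bp, the length to which tags were extended, were 3 of 26 and 6 of 31, beside 16.0% and 13.8% of all regions. Of these, 3 of 3 and 5 of 6 were in 1 library alone, against 60.9% and 73.8% of all regions of that length.

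PLAU encodes urokinase, the serine protease that activates plasminogen. The gene lies on the plus strand at chr10:73908832-73917494, with RefSeq starts at 73910610 and 73911132. No region of either library lay inside it. Instead a row of regions lay before the gene, and 1 lay beyond its end. With 5 and 4 regions in a window of 48.7 kb, PLAU had more regions per length than 98.0% and 91.1% of protein-coding genes, the highest of the 9 genes in both.

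The PLAU region nearest the gene ended 1.60 kb before it in the library labelled untreated, at chr10:73906686-73907231. There the pileup, the number of tags over the summit, was 25 and the fold enrichment 3.71. The library labelled lactate had chr10:73906635-73907260 at the same place, with a pileup of 40 and a fold enrichment of 5.31. Both lists give this region 2 summits, the second with pileups of 23 and 27. Scaled to library tags, the taller summit was 1.66 times as high in the library labelled lactate (95% counting interval 0.983 to 2.86), so the interval reached just below 1.

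Further before PLAU, the library labelled untreated had chr10:73893448-73893690 (pileup 21, fold 3.86), and the library labelled lactate chr10:73893485-73893690 (pileup 25, fold 4.71). At the margin of the 20 kb lay chr10:73888510-73889266 (pileup 25, fold 3.75) and chr10:73888867-73889251 (pileup 29, fold 4.05), inside the noncoding gene LOC124902454. These pairs differed by less than their counting error, with ratios of 1.24 (0.664 to 2.32) and 1.2 (0.681 to 2.14). One region, chr10:73899458-73899705 (pileup 12, fold 4.01), was listed in the library labelled untreated alone. The nearest region of the other library was 5.77 kb from it. Beyond the gene, the strongest PLAU regions by fold lay at chr10:73932249-73932729 (pileup 16, fold 5.28) and chr10:73932140-73932638 (pileup 24, fold 6.48), with a ratio of 1.56 (0.794 to 3.14).

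PLAUR encodes the urokinase receptor, which is anchored in the membrane by a lipid and gathers urokinase at the cell edge. Its gene, on the minus strand at chr19:43646095-43670169, held the strongest regions of the 9 genes. The one inside the gene, with summits 1.55 and 1.47 kb after the start, was chr19:43668366-43669200 in the library labelled untreated, with a pileup of 53 and a fold enrichment of 8.18. That fold exceeded those of 95.9% of the library's regions. Its partner in the library labelled lactate, chr19:43668300-43669168, had a pileup of 54 and a fold of 7.35. The 2 regions had nearly equal height, with a ratio of 1.06 (0.710 to 1.58), and 803 bp in common. At 835 and 869 bp they were longer than 97.2% and 96.8% of all regions. The first reached 31 bp past the edge of the 1 kb window at the gene's end and the second ended 1 bp short of it, so PLAUR counts as marked at an end in the library labelled untreated alone although the 2 regions are at 1 place.

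Before the PLAUR start lay a second strong pair. It spanned chr19:43675461-43675740 in the library labelled untreated (pileup 26, fold 6.03) and chr19:43675407-43675760 in the library labelled lactate (pileup 45, fold 8.46), 5.29 and 5.24 kb from the gene. The height per library tag was 1.80 times as high in the latter (interval 1.08 to 3.03). This was the single pair of the 17 whose counting interval lay above 1, a share near that of all shared pairs, of which 5.95% had such an interval. In the library labelled lactate a small region stood beside it, chr19:43674845-43675057, with a pileup of 15 and a fold of 2.75, the lowest fold of all the members' regions. It was in that library alone, 404 bp from the nearest region of the other. Both pairs near the PLAUR start also lie in the noncoding gene LOC124904724.

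The other PLAUR regions were weaker. Inside the gene, the library labelled untreated alone had chr19:43662826-43663092 (pileup 11, fold 4.14). Further out, 16.7 and 16.5 kb from the gene, both libraries had a region of 2 summits. It spanned chr19:43686862-43687393 (pileups 15 and 18, highest fold 5.05) and chr19:43686698-43687378 (pileups 12 and 14, highest fold 4.44). The ratio there was 0.807 (interval 0.372 to 1.72), 1 of the 2 ratios below 1 among the 17 pairs.

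PLAT encodes tissue-type plasminogen activator, which acts on the fibrin of clots. At chr8:42174718-42207565 it had weak regions, and no region of 1 library overlapped one of the other. The library labelled untreated had 1, chr8:42201043-42201254, with a pileup of 9 and a fold of 3.42. The library labelled lactate had 4. At the upper end of the gene lay chr8:42206795-42206994 (pileup 11, fold 4.62) and chr8:42207442-42207763 (pileup 8, fold 3.52), and inside it chr8:42184881-42185080 (pileup 7, fold 3.48). The fourth, chr8:42171652-42171855 (pileup 9, fold 5.06), lay 2.86 kb below PLAT but 469 bp from AP3M2, the neighbouring gene. All 5 had pileups of 11 or fewer, against medians of 14 and 15 over all regions. The height of the other library at these places is not in the lists, so the sites show a difference in what was listed and not a measured difference in signal.

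SERPINE2 encodes protease nexin-1, a serpin that inhibits thrombin, urokinase and the tissue-type activator. Neither library had a region inside this gene of 64.2 kb on the minus strand (chr2:223975045-224039286) or at its starts. Its 1 region in each library lay 17.5 and 17.6 kb below it, inside MRPL44, a gene of the mitochondrial ribosome. The positions were chr2:223957243-223957577 (pileup 12, fold 5.28) and chr2:223957190-223957468 (pileup 19, fold 7.87), with a ratio of 1.64 (0.758 to 3.71). The regions that the 20 kb limit gives to SERPINE2 thus lie in another gene. With 0.959 regions per 100 kb, it was the sparsest of the 9 genes in both libraries.

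PDPN encodes podoplanin, a mucin-like membrane glycoprotein that binds ezrin inside the cell and the platelet receptor CLEC-2 outside it. The gene, on the plus strand at chr1:13583757-13617957, had many regions and low folds in both libraries, from 3.09 to 3.77 and from 3.13 to 4.74. Both libraries shared the strongest one inside it, chr1:13599657-13600008 (pileup 11, fold 3.77) and chr1:13599769-13600060 (pileup 17, fold 4.74), with summits 1 bp apart. Its ratio was 1.60 (interval 0.709 to 3.79). Near the starts the libraries differed in what was listed. The library labelled lactate had chr1:13584102-13584301, chr1:13584516-13584759 and chr1:13587358-13587665, each with a pileup of 12 and with folds of 3.13, 3.13 and 3.22. The nearest region of the library labelled untreated was at least 9.33 kb away from any of them. These were weak regions, since only 5.45%, 5.45% and 6.99% of that library's regions had a lower fold.

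Of the other PDPN regions, chr1:13605267-13605556 (pileup 12, fold 4.14) was in the library labelled lactate alone. In the library labelled untreated alone were chr1:13574577-13574776 (pileup 8, fold 3.52) and chr1:13600198-13600397 (pileup 9, fold 3.09). The latter lay 138 bp from the shared region of the other library, so the 2 libraries do not plainly differ there. A last pair beyond the gene, chr1:13628738-13628977 (pileup 9, fold 3.65) and chr1:13628931-13629419 (pileup 7, fold 3.42), had 47 bp in common and a ratio of 0.807 (0.256 to 2.44).

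ADAM9 encodes a membrane metalloproteinase that sheds surface proteins. At its lower end, the library labelled untreated alone had chr8:38996535-38996869, with a pileup of 14 and a fold of 6.20, which exceeded those of 82.2% of its regions. The region ended 104 bp before ADAM9 (chr8:38996973-39105261) and lay inside TM2D2, whose annotated end overlaps that of ADAM9, so it is at the ends of both genes. The nearest region of the library labelled lactate was 7.83 kb away. Among the 9 regions without a partner in the other list it had the highest fold.

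Inside ADAM9 the library labelled lactate had 3 regions of like strength. The first, chr8:39004701-39005102 (pileup 15, fold 6.30), overlapped chr8:39004733-39005089 of the other library (pileup 6, fold 3.30). This pair had the highest ratio of the 17, 2.60, but on 6 and 15 tags its interval was 0.952 to 8.16. The second pair was chr8:39038068-39038366 (pileup 7, fold 3.97) and chr8:39038169-39038421 (pileup 12, fold 6.58), with a ratio of 1.78 (0.646 to 5.34). Between them chr8:39032192-39032602 (pileup 12, fold 6.37) was in the library labelled lactate alone, with the highest fold of its 14 such regions and 5.47 kb from the nearest region of the other.

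ADAM10 encodes the sheddase that cleaves Notch receptors and E-cadherin, among others. In its 161 kb on the minus strand (chr15:58588809-58749707) the main feature was a shared region over the start. It spanned chr15:58749674-58750112 in the library labelled untreated (pileup 18, fold 6.13) and chr15:58749695-58750156 in the library labelled lactate (pileup 20, fold 7.34). The summits lay at -238 and -247 bp relative to the start, and both regions cover all of the ADAM10 bases printed above. Their heights were alike within counting error, with a ratio of 1.15 (0.579 to 2.31).

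Away from its start ADAM10 had single weak regions, none of them shared. The library labelled untreated had chr15:58690855-58691054 (pileup 8, fold 4.47), inside the pseudogene HSP90AB4P. The library labelled lactate had chr15:58612526-58612865 (pileup 8, fold 4.56) and chr15:58731689-58732192 (pileup 8, fold 4.29). With 0.996 and 1.49 regions per 100 kb, ADAM10 was sparser than most genes: 25.1% and 27.5% of protein-coding genes had fewer per length.

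ADAM17 encodes the enzyme that releases TNF and many ligands of the EGF receptor. At its start, on the minus strand of chr2:9488486-9555830, the library labelled untreated had a pair of regions, chr2:9555268-9555480 (pileup 19, fold 4.65) after the start and chr2:9555682-9556087 (pileup 18, fold 4.40) over it. The library labelled lactate had 1 longer region, chr2:9555660-9556346, with a pileup of 25 and a fold of 5.14. It overlapped the second of them, with a ratio of 1.44 (0.756 to 2.81), and lay 180 bp from the first. The regions over the start cover all ADAM17 bases printed above. The first is counted in the library labelled untreated alone by the 1 bp rule, although it stands beside a region of the other.

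Before the ADAM17 start both libraries had a low region, chr2:9558994-9559255 (pileup 14, fold 3.62) and chr2:9559004-9559203 (pileup 15, fold 3.33), with a ratio of 1.11 (0.501 to 2.49). Further out the library labelled lactate alone had chr2:9565503-9565702 (pileup 14, fold 4.84) and chr2:9573424-9573623 (pileup 11, fold 4.72), both in the noncoding gene LOC101929643. Toward the other end of ADAM17 the regions lay in IAH1, a gene that overlaps it. Outside ADAM17, 13.4 kb from it, were chr2:9474828-9475122 (pileup 12, fold 4.36) and chr2:9474619-9475070 (pileup 12, fold 4.81), with a ratio of 1.04 (0.427 to 2.53). Inside both genes was chr2:9496955-9497448 (pileup 8, fold 4.29), in the library labelled untreated alone.

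THBS1 encodes thrombospondin-1, a secreted matrix glycoprotein that binds CD47 and can activate latent TGF-beta. It had exactly 1 region per library, over its start. On the plus strand of chr15:39581079-39599466, the region spanned chr15:39580741-39581454 in the library labelled untreated (pileup 22, fold 4.17) and chr15:39580876-39581497 in the library labelled lactate (pileup 35, fold 5.90). The summits stood 2 bp apart, 244 and 246 bp after the start. The ratio per library tag was 1.65 (0.942 to 2.96). These regions were long, at 714 and 622 bp, longer than 94.3% and 87.5% of all regions, and also lie at a gene model named LOC124903470.

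A region was counted at a gene end when it came within 1 kb of that end, on the inner or the outer side. By this count 5 of the 9 genes had a region in each library (55.6%, against 43.5% and 49.5% of all protein-coding genes). ADAM10, ADAM17 and THBS1 had one in both. PLAUR and ADAM9 had one in the library labelled untreated alone (3.74% of all protein-coding genes), and PLAT and PDPN in the library labelled lactate alone (9.7% of all). PLAU and SERPINE2 had none. Of the 4 genes that differ, PLAUR does so by the edge of the window only. The PLAT and PDPN regions had folds of at most 4.62, and at a fold of at least 5 neither gene had one at an end. In the library labelled untreated, the end regions of ADAM17 (4.65 and 4.40) and THBS1 (4.17) were also under 5. At that limit ADAM10 alone had one in both libraries.

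The 17 shared pairs allow the height to be compared directly. Pileup per library tag was higher in the library labelled lactate in 15 of 17 (88.2%, against 72% of all 31120 shared pairs), and the median ratio was 1.44, against 1.19 over all pairs. At least 1.5 times the height was reached by 8 of 17 (47.1%, against 21.7%), and the reverse by 0 of 17 (2.87% of all). Summed over the 17 pairs, 313 and 408 tags gave a ratio of 1.35 with a counting interval of 1.17 to 1.57. That interval treats tags as independent and does not cover variation between libraries. It includes 1.19, the median of all pairs, though that is a median of single ratios and not a pooled ratio. One pair, before the PLAUR start, had an interval above 1 (5.95% of all pairs) and 0 had one below it (0.186% of all). Pileups of 6 to 54 tags leave wide intervals.

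**Figure D3:**
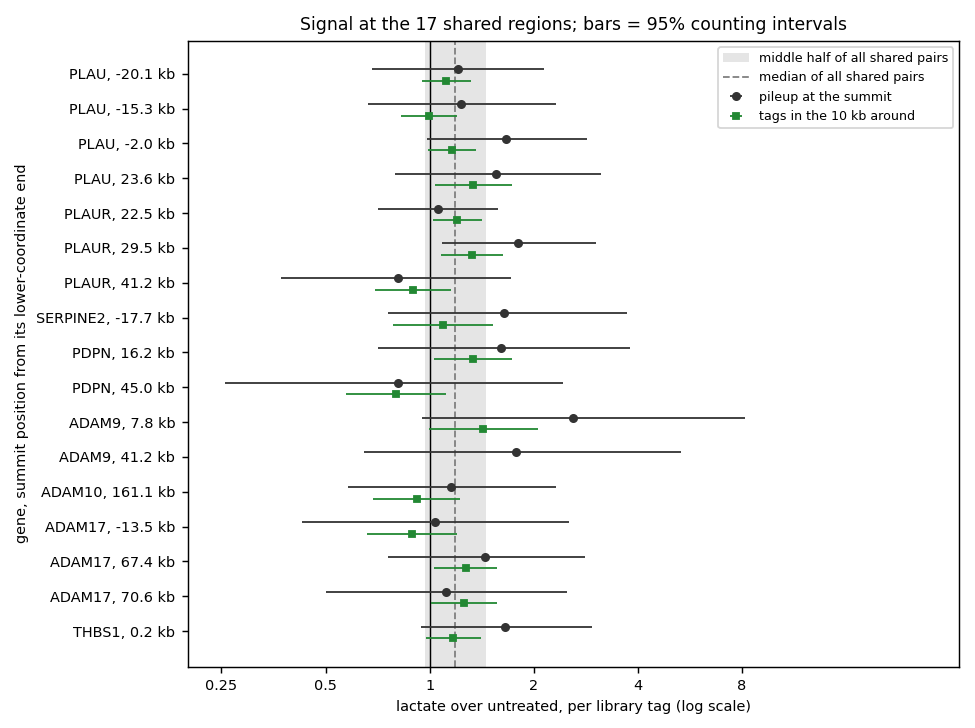
Signal in the library labelled lactate over that in the library labelled untreated, per library tag, on a log scale (horizontal axis), for the 17 shared regions (vertical axis, named by gene and summit position). Black circles are pileups at the summit, green squares are tags in the 10 kb around it, bars are 95% counting intervals, the dashed line and grey band are the median and quartiles of the pileup ratio over all shared pairs. Most points lie above 1 and most black bars include it; the PLAUR pair before the start, at 1.80, is clear of it.

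The local background behind each fold gives a further readout, the number of tags in the 10 kb around the summit. It is a count of tags where it exceeds the genome-wide level of 50.6 or 48.8 tags, and it includes the region's own tags. The medians over all regions were 113 and 116. Around the PLAU regions there were 111 to 300 tags in the library labelled untreated and 143 to 336 in the other. Around the PLAUR regions there were 95 to 280 and 119 to 324, and at THBS1 226 and 255. The densest surroundings were thus at PLAU, PLAUR and THBS1, though single regions of PLAU and PLAUR were near the median. ADAM17, with 55 to 166 and 77 to 203 tags, and PDPN, with 78 to 112 and 67 to 158, lay to both sides of it. PLAT, SERPINE2, ADAM9 and ADAM10 had few, at most 105 and 93, and 2 and 3 regions of the 9 genes were at or under the genome-wide level, all of them at PLAT, ADAM9 or ADAM10.

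The surroundings set how a given height reads as fold. At PLAU a pileup of 25 in the library labelled untreated gave a fold of 3.71 over 300 tags. At ADAM9 a pileup of 14 over 71 tags gave 6.20, and at ADAM10 a pileup of 18 over 105 tags gave 6.13. This PLAU region therefore ranked above those of ADAM9 and ADAM10 in height and below them in fold. The PLAUR region near its start, inside the gene, ranked high in both in that library, with a pileup of 53 and a fold of 8.18. Not all PLAUR regions did: another inside the gene had a pileup of 11 and a fold of 4.14.

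**Figure D4:**
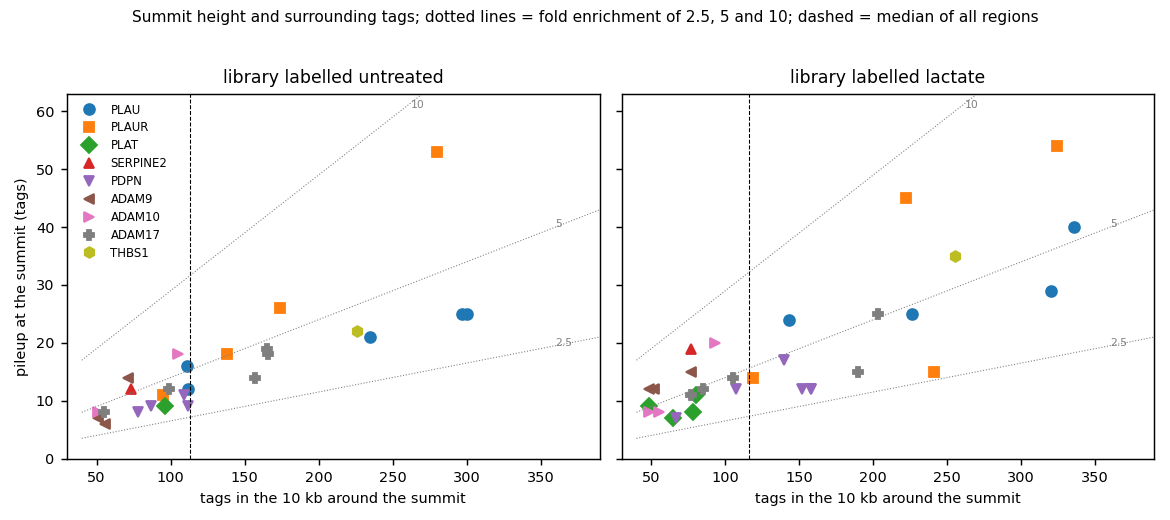
Pileup at the summit (vertical axis, tags) against tags in the 10 kb around it (horizontal axis) for every region of the 9 genes, one panel per library. Dotted lines join points of equal fold enrichment (2.5, 5 and 10), the dashed line is the median of all regions with a count, and regions at or under the genome-wide level are drawn at that level. PLAU, PLAUR and THBS1 reach farthest right in both panels, ADAM17 and PDPN lie between, and PLAT, SERPINE2, ADAM9 and ADAM10 stay at the left.

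For 16 of the 17 pairs both libraries gave this count, and the median ratio of the surroundings per library tag was 1.17, against 1.09 over all pairs. The PLAUR pair before the start went from 174 to 222 tags, a ratio of 1.32 (interval 1.08 to 1.62), and the pair inside PLAUR from 280 to 324, a ratio of 1.2 (1.02 to 1.41). Around the pair beyond PLAU the surroundings went from 111 to 143 tags (1.34, interval 1.04 to 1.73). At PDPN, around the shared region inside the gene, they went from 109 to 140 tags (1.33, interval 1.03 to 1.73). At the ADAM17 start they went from 166 to 203 tags (1.27, interval 1.03 to 1.57), and around the region before it, whose window overlaps, from 157 to 190. These 6 of 16 intervals were the ones above 1, against 16.7% over all such pairs, and 0 were below it (1.12% of all). At ADAM10 the start had 105 and 93 tags, a ratio of 0.919 (0.688 to 1.23), which includes 1. The windows of neighbouring regions share tags, so the 6 are not 6 separate observations.

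The partners of these genes were examined by 4 lists. Of 58 genes in all, 24 and 32 had a region at an end (41.4% and 55.2%, against 43.5% and 49.5% of all protein-coding genes). In both were 21, in the former alone 3 (5.17%, against 3.74%) and in the latter alone 11 (19.0%, against 9.7%). Within 20 kb, 54 and 55 of the 58 had a region (81% and 83.9% of all protein-coding genes).

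Of 19 partners in the plasminogen system, 9 and 10 had a region at an end (47.4% and 52.6%, against 43.5% and 49.5% of all protein-coding genes). The 9 had one in both libraries, CPB2 at an end that ZC3H13 shares. They included the genes of the plasminogen-binding proteins ANXA2 (highest folds 4.39 and 3.62), S100A10 (3.44 and 4.37), ENO1 (4.32 and 5.56) and PLGRKT (4.48 and 5.65), and LRP1 (3.85 and 5.08), which clears the urokinase complex from the surface. The LRP1 regions of highest fold did not overlap, though that of the library labelled lactate overlapped a weaker one of the other. MRC2, which encodes a collagen receptor that associates with the urokinase receptor, had one in the library labelled lactate alone (fold 2.90). PLG, the plasminogen gene itself, and SERPINB2, which encodes a serpin that inhibits urokinase, had none at an end in either.

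Among 17 ADAM partners and relatives, 5 and 10 had a region at an end. RHBDF1, TSPAN14 and TSPAN17 had one in both, RHBDF2 (fold 3.21) and TSPAN33 (3.0) in the former alone. The 7 in the latter alone were RECK (4.74), PCSK7 (4.53), ADAM15 (4.37), ADAM12 (3.85), TSPAN10 (3.63), ADAM8 (3.02) and TSPAN15 (2.82). The regions of RHBDF1 also lie at an end of MPG, those of TSPAN17 at one of EIF4E1B and that of TSPAN10 at one of NPLOC4. RECK encodes a membrane inhibitor of metalloproteinases, PCSK7 a proprotein convertase, and TSPAN15 a tetraspanin that partners ADAM10. All 9 that differ had folds under 5, and none of the 9 regions overlapped one of the other library. Of all regions, 28.8% and 38.8% had no such overlap.

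Of 14 podoplanin and invadopodium partners, 7 and 8 had a region at an end (50% and 57.1%, against 43.5% and 49.5% of all protein-coding genes). CD44, CTTN, WASL, FSCN1, MYO10 and CCL21 had one in both. EZR (5.31) and MSN (5.22), which encode ezrin and moesin, had one in the library labelled lactate alone, and RDX (4.09), which encodes radixin, in the other alone. The EZR region overlapped one of the library labelled untreated outside the window, so EZR does not differ in listed regions at that place. CLEC1B, the gene of the platelet receptor for podoplanin, had no region within 20 kb in either library. Of 8 thrombospondin relatives and receptors, 3 and 4 had one at an end (37.5% and 50%, against 43.5% and 49.5%). THBS4, CD47 and ADAMTS1 had one in both. The regions of highest fold lay at different ends of THBS4, that of the library labelled lactate at an end that MTX3 shares. THBS3 (4.09) had one in the library labelled lactate alone, at an end that MTX1 shares. CD36 had no region within 20 kb in either.

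**Figure D5:**
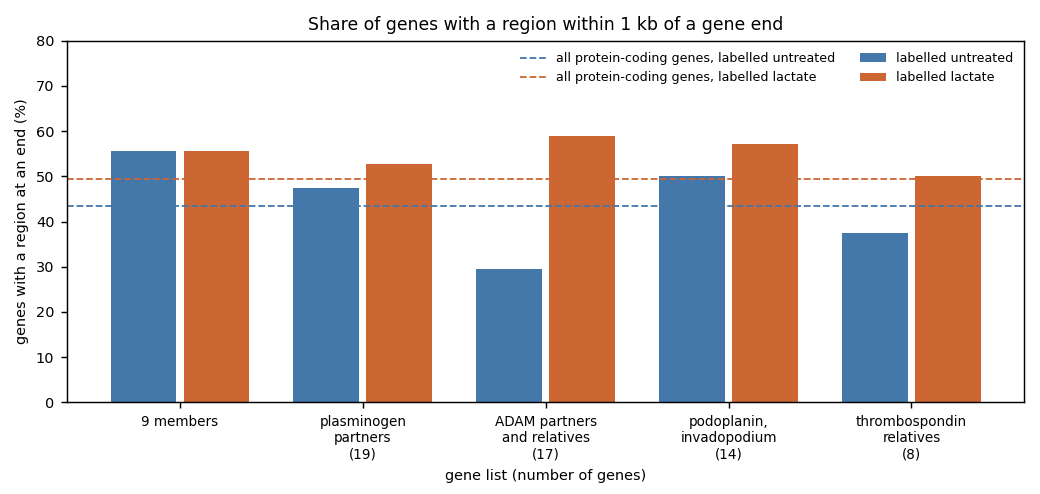
Percentage of genes with a region within 1 kb of a gene end (vertical axis) for the 9 genes and the 4 partner lists, with the number of genes in each, in blue for the library labelled untreated and orange for the library labelled lactate. Dashed lines are the shares over all protein-coding genes, 43.5% and 49.5%. The ADAM partners show the widest gap between the libraries, 29.4% and 58.8%, and the 9 genes have equal shares.

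As to the cell type, 10 of 10 squamous epithelium markers had a region within 20 kb in both libraries, and so did 11 and 14 of 15 markers of fibroblasts, endothelium and blood, beside 81% and 83.9% of all protein-coding genes. At gene ends these were 5 and 6 of 10, and 6 and 5 of 15, beside 43.5% and 49.5%. Presence of a region therefore does not set the squamous markers apart here.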

How the data were processed

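CUT&Tag for lactylated lysine was carried out on CAL27 cells, with 1 library per group. The build was hg38, and the tools were MACS2 2.1.0, BWA and fastp 0.20.0, per the submitters' processing notes. Per the file headers, MACS 2.1.0.20150420 called peaks in each library separately without a control, at a q of 0.05, a shift of -100 and an extension of 200 bp. The pileup deposited by the authors is a signal, the tags over a summit without scaling to depth. The fold enrichment deposited by the authors is the ratio of pileup plus 1 to local background plus 1.

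Summits of 1 start and end were collapsed to regions, shown by the summit of highest fold. The local background was recomputed from pileup and fold. Times 50 it gave whole tags, within 0.05, in 99.98% of the regions above the genome-wide level in the library labelled untreated. A shared region of the library labelled untreated was paired with the overlapping region of highest pileup in the other, and ratios have exact conditional binomial 95% intervals for counting error only, as tags are not independent molecules. Genes, starts and sequences came from RefSeq GRCh38.p14. No genome sequence was used here, so exons and introns were not split.

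All 9 genes are named. Every region at a gene end and the strongest region in each library are described, the rest by position and values, and partner genes by counts, or by name where 1 library alone had a region at an end or, chosen after the values were seen, for their known role. Some genes of the lists are not reported here by name. The members and lists were chosen with earlier results of these data known. The counts were checked on simulated data. Tools were SciPy 1.17.1, numpy 2.4.6 and pandas 2.3.3 under Python 3.11.15, with matplotlib 3.10.9 for figures.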

Additional observations from a re-analysis of the deposited data

How the results depend on the processing

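No paired analysis was possible because each group has 1 library. Under the alternatives run, the library labelled lactate kept more regions over the 9 genes, more of them without a partner, and a median ratio above 1. The whole list of that library was also the longer, with 50352 against 43680 regions, and 23840 against 17310 at a fold of at least 5. Of all its regions 38.8% had no partner, against 28.8%, and the median ratio over all pairs was 1.19. For the alternatives, the share of all regions in 1 list alone was not computed. With both lists limited to a fold of at least 5, the members had 7 and 12 regions (untreated, then lactate). Of these, 2 and 7 were in 1 limited list alone, and 3 and 3 genes had one at an end. The genes were PLAUR, ADAM9 and ADAM10 in the former and ADAM10, ADAM17 and THBS1 in the latter. Under this limit and the 2 that follow, a region also counts as alone where its partner fell short of the limit. In the full lists, 1 and 2 of the 7 and 12 regions had no partner. With −log10 p, recomputed, no lower than 7 there were 13 and 19 regions, 2 and 8 alone, with 84.6% and 57.9% shared. There 5 and 3 genes had one at an end. With equal lists of the 21840 regions of highest fold there were 8 and 11, 3 and 6 alone, both differences falling from 5 to 3, and 4 and 3 genes with one at an end. The equal number of genes with a region at an end, 5 and 5, thus became the higher one in the library labelled untreated under these 2 limits. PLAUR, which differs by the edge of the window only, is among the genes of that library under both. The share of all protein-coding genes under these limits was not computed, so the counts give no direction for the members. Inside the genes lay 13 and 17 regions, within 5 kb 16 in the library labelled untreated, and within 50 kb 40 and 50, with 23 in the library labelled lactate alone and differences of 12 (alone) and 10 (all). The median pileup ratio of 1.44 became 1.22 when divided by that of all pairs, 1.22 with fold enrichment and 1.17 with tags in the 10 kb around, an alternative chosen after seeing the data, as was the window around RefSeq starts, which gave 4 and 4 genes. The cause of these shifts was not tested, beyond the fewer or more regions that each limit admits. Overlap of 50%, summits within 500 bp, every summit counted, and end windows of 500 bp and 2 kb left the counts within 1.5 times. Pileups of 6 to 54 tags limit every ratio.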

Other observations

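With the limit at 50 kb in place of 20 kb, 7 of the 9 genes gained regions. In the libraries labelled untreated and lactate, ADAM10 went from 2 to 6 and from 3 to 6 regions, SERPINE2 from 1 to 3 and from 1 to 4, and THBS1 from 1 to 3 in each. PLAU went from 5 to 6 and from 4 to 8, PLAUR from 4 to 7 in each, PLAT from 1 to 2 and from 4 to 6, and PDPN from 4 to 5 and from 6 to 8. ADAM9 and ADAM17 gained none.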
